A study of Mus musculus with 12 samples.

Results

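The AF4/FMR2 family consists of 4 genes, Aff1, Aff2, Aff3 and Aff4, taken by symbol from the 55487 gene rows measured in mouse brain. All 4 were found with 1 row each in both tissue tables, and all 4 passed the filter on low values. They were listed with their values in these libraries known, so their levels are described below without a test.

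Transcripts were sequenced from total RNA of C57BL/6 mice in 12 libraries, 3 in each of 4 groups: cerebral cortex of mTert KO (G1) mice, cerebral cortex of mTert WT mice, hippocampus of mTert KO (G1) mice and hippocampus of mTert WT mice. The mTert gene encodes the catalytic subunit of telomerase, and the groups are called knockout and wild type here. The labels name neither age nor sex of the mice, and do not say whether the libraries of a group, or the same-numbered libraries of the 2 tissues, came from separate animals. Any p-value therefore weighs a difference against the spread between these libraries, which may be technical in part.

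AF4/FMR2 proteins are scaffolds of the super elongation complex. They hold together the kinase P-TEFb, made of Cdk9 and a cyclin T, with Ell elongation factors and with the chromatin readers encoded by Mllt1 and Mllt3, and the assembled complex releases paused RNA polymerase II into productive elongation. In humans, AFF1 is a frequent fusion partner of KMT2A in leukaemia, silencing of AFF2 by a repeat expansion causes the FRAXE form of intellectual disability, and variants of AFF3 and AFF4 cause developmental disorders.

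In the knockout hippocampus Aff2 transcripts stood at 17.1% of the wild-type mean, Aff4 at 57.6% and Aff1 at 66.4%, while Aff3 stood at 97.3%. In the knockout cortex the picture depended on wild-type library 2, in which all 4 genes were low. Against the mean of all 3 wild-type libraries, Aff2 stood at 88.4% and Aff4 at 79.0% in knockout cortex, Aff3 at 107% and Aff1 at 133%. Only for Aff1 did the groups not overlap there. Against the other 2 wild-type libraries, Aff2 stood at 69.6% and Aff4 at 69.4% in knockout cortex, Aff3 at 98.0% and Aff1 at 116%.

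The 4 genes lie apart in the genome (GRCm38). Aff1 (ENSMUSG00000029313) occupies chr5:103692374-103855322 on the plus strand, with 9458 bases of merged exons. Aff2 (ENSMUSG00000031189) occupies chrX:69360294-69868037 on the plus strand, with 7267 exonic bases. Aff3 (ENSMUSG00000037138) occupies chr1:38177326-38664955 on the minus strand, with 6654 exonic bases. Aff4 (ENSMUSG00000049470) occupies chr11:53350833-53421830 on the plus strand, with 13450 exonic bases. Aff2 and Aff3 are the long loci, spanning 507.7 and 487.6 kb, against 162.9 kb for Aff1 and 71.0 kb for Aff4.

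The bases just upstream of each start are shown so that the promoters of the family can be compared. The data hold no readout of these sequences. Each run gives the first 200 bases of the RefSeq promoter window (GRCm38.p6), 5′ to 3′ on the gene's strand, all of them before the annotated RefSeq start and outside any annotated exon of the gene. For Aff1 the first of 2 RefSeq starts is shown, and for Aff1 and Aff3 the RefSeq start lies inside the GENCODE gene span given above. Capitals mark GGGCGG or its reverse complement CCGCCC, the GC box, including matches that overlap. The windows are chr5:103753912-103754111 for Aff1, chrX:69360081-69360280 for Aff2, chr1:38627295-38627494 on the minus strand for Aff3, and chr11:53350517-53350716 for Aff4.
Aff1: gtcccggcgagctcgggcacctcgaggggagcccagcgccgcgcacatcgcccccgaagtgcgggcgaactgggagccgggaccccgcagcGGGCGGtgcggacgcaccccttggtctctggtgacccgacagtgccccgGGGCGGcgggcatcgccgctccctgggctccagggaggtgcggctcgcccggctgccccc
Aff2: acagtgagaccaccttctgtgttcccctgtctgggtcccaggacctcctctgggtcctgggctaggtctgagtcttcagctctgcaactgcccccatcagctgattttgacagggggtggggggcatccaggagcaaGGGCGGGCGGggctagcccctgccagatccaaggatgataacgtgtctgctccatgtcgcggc
Aff3: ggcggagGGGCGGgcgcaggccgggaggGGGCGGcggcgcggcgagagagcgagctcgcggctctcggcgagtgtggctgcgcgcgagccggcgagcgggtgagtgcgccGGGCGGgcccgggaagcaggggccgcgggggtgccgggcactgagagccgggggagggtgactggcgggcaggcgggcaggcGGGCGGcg
Aff4: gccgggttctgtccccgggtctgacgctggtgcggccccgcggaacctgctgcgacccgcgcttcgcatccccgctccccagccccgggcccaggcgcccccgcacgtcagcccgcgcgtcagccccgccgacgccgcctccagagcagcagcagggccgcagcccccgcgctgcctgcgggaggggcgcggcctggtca
The Aff2 window held 5 CG dinucleotides, against 26 for Aff1, 33 for Aff3 and 28 for Aff4, where the median over 32851 RefSeq windows of the same length was 4. Its G and C bases made up 62.0%, against 78.5%, 83.5% and 80.0% in the windows of Aff1, Aff3 and Aff4. GC box matches numbered 2 in Aff1, 2 in Aff2, 4 in Aff3 and 0 in Aff4, and 24.6% of all windows held at least 1. The E-box CACGTG, the TATA box TATAAA and the CCAAT box, searched on both strands like the GC box, had 0 matches in the 4 windows. They were present in 4.34% (E-box), 9.14% (TATA box) and 28.4% (CCAAT) of all windows. These matches describe the letters only.

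The deposited values are normalized counts, that is, reads per gene divided by a size factor per library. Recovered totals lay between 68424934 and 86639113 reads per library. Tert was at 0 in all 3 knockout cortex libraries and at 105 to 241 normalized counts in wild-type cortex; it was at 0, 6.31 and 0 in knockout hippocampus and at 128 to 184 in wild-type hippocampus. The 6 cortical markers summed to 49572 to 50647 normalized counts in knockout cortex and 36988 to 43630 in wild-type cortex. In hippocampus libraries they summed to 12422 to 13610. The 8 hippocampal markers summed to 69980 to 85288 in hippocampus libraries, 8822 to 9046 in knockout cortex and 9090 to 10919 in wild-type cortex. The tables were scaled separately. In cortex 1 cortical marker rose and 1 fell, and 2 hippocampal markers fell (limma adjusted p below 0.05). Of all genes there, 1.28% rose and 0.661% fell. At an unadjusted p below 0.05 were 6 of the 6 and 4 of the 8, against 18.4% of all genes. The part of this difference in the member values was not tested. Cortex wild-type library 2 stood apart: the chi-square of its reads, averaged over genes, was 102 against wild-type library 1 and 93.9 against library 3, while libraries 1 and 3 differed by 9.54. In hippocampus this value was 48.8 between wild-type libraries 1 and 2, 15.5 between 1 and 3, and 20.4 between 2 and 3. Between knockout hippocampus libraries it was 10.9 to 15.6. Cortex fold changes of the members are given with and without cortex wild-type library 2. Its own values are given for member levels, ratios and shares. For marker lists and elongation genes, calls or fold changes without it are given.

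Aff2, the FMR2 gene, is the member with the largest difference. In knockout hippocampus it measured 177, 161 and 150 normalized counts, and in wild-type hippocampus 920, 1010 and 911. The groups lay far apart, with the highest knockout library well below the lowest wild-type library. The means were 162 ± 13.5 in knockout and 947 ± 55.0 in wild type (SD, n = 3 each), a log2 fold change of -2.54 ± 0.09 (SE), or 5.81-fold lower. The knockout values rested on 155 to 181 reads per library, for which counting alone gives an error of 7.43% to 8.03%, close to the observed coefficient of variation of 8.32%.

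In cortex Aff2 measured 494, 505 and 463 normalized counts in knockout libraries, against 690, 253 and 710 in wild-type libraries. The 3 knockout libraries agreed closely and lay between the wild-type ones, since wild-type library 2 reached only 36.2% of the mean of the other 2. The means were 487 ± 21.6 in knockout and 551 ± 258 in wild type, a log2 fold change of -0.04 ± 0.37. Without wild-type library 2 it was -0.52 ± 0.07, with the knockout libraries all lower, and without wild-type library 1 or 3 it was 0.20 or 0.22. The direction of the cortex value therefore changed with the wild-type library left out.

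Aff4 encodes the main scaffold of the super elongation complex. It had 11606, 12000 and 11831 normalized counts in knockout hippocampus, against 18594, 22264 and 20624 in wild-type hippocampus. All knockout libraries were lower than all wild-type libraries, with means of 11812 ± 197 and 20494 ± 1838 and a log2 fold change of -0.79 ± 0.06. When the trend of each library along exonic length was removed, the value was -0.43. In knockout cortex Aff4 had 9502, 10178 and 9901 normalized counts, against 14120, 9059 and 14279 in wild-type cortex. Wild-type library 2 lay below all 3 knockout libraries and the other wild-type libraries above them, and the log2 fold change was -0.31 ± 0.17 with library 2 and -0.53 ± 0.03 without it.

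Aff1, which encodes AF4, was the member that stood higher in knockout cortex and lower in knockout hippocampus. In knockout cortex it measured 1750, 1857 and 1890 normalized counts, against 1668, 957 and 1503 in wild-type cortex. The groups did not overlap, though the gap to wild-type library 1 was small. The log2 fold change was 0.45 ± 0.19, and 0.21 ± 0.06 without wild-type library 2. In knockout hippocampus Aff1 measured 1471, 1476 and 1508 normalized counts, against 2112, 2364 and 2230 in wild-type hippocampus. There the knockout libraries were all lower, by -0.59 ± 0.05 on the log2 scale, and by -0.40 with the length trend removed.

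Aff3, also known as LAF4, had the smallest difference of the 4 in hippocampus and, without wild-type library 2, in cortex. With all cortex libraries that of Aff2 was smaller. In knockout hippocampus it measured 5369, 5596 and 5510 normalized counts, against 5174, 5994 and 5763 in wild-type hippocampus. The groups overlapped, and the log2 fold change was -0.04 ± 0.06, with its sign changing without wild-type library 2 (0.0079). In knockout cortex Aff3 measured 4240, 4400 and 4463 normalized counts, against 4586, 3360 and 4329 in wild-type cortex. These groups overlapped too, at 0.11 ± 0.12 with wild-type library 2 and -0.03 ± 0.04 without it.

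**Figure D1:**
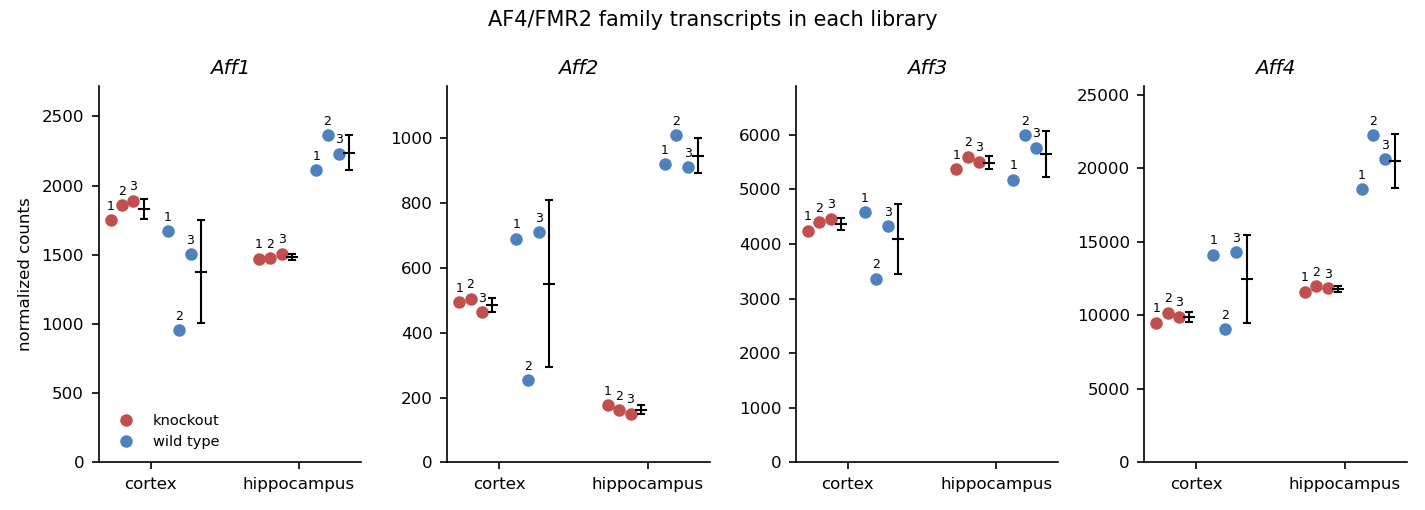
Normalized counts (vertical axes, from 0) of the 4 genes in each library, with knockout in red left of wild type in blue within each tissue, replicate numbers beside the points, and black bars for the mean ± SD (n = 3). Aff2 in knockout hippocampus lay between 150 and 177 and in wild-type hippocampus between 911 and 1010, and cortex wild-type library 2 was the lowest wild-type library for all 4 genes.

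Of the 4 members, 3 had knockout libraries all below the wild-type libraries in hippocampus. The same held for 21.5% of the 22337 genes tested there, while 24.3% had knockout libraries all above and 45.8% did one or the other. Because the members were listed on these values, nothing is read from the counts. In cortex 1 member, Aff1, had knockout libraries all above the wild-type libraries, as had 16.0% of 21945 genes, and 0 members had them all below, against 12.2%. In either direction 28.3% of cortex genes did not overlap. Without wild-type library 2 these were 1 member higher, against 25.0% of genes, and 2 members lower, against 24.8%.

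Knockout libraries agreed among themselves more closely than wild-type libraries in 7 of the 8 combinations of member and tissue, the exception being Aff2 in hippocampus. Coefficients of variation over the 3 libraries ran from 2.63% (Aff3) to 4.43% (Aff2) in knockout cortex and from 15.8% (Aff3) to 46.8% (Aff2) in wild-type cortex. In hippocampus they ran from 1.36% (Aff1) to 8.32% (Aff2) in knockout and from 5.64% (Aff1) to 8.97% (Aff4) in wild type. Relative to the mean of wild-type libraries 1 and 3, cortex wild-type library 2 held 36.2% for Aff2, 60.3% for Aff1, 63.8% for Aff4 and 75.4% for Aff3.

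Levels of different genes were compared as normalized counts per kb of merged exon. The order was Aff4, Aff3, Aff1 and Aff2, from high to low, in each of the 12 libraries. In knockout hippocampus these levels per kb were 878 ± 14.7 for Aff4, 825 ± 17.2 for Aff3, 157 ± 2.13 for Aff1 and 22.3 ± 1.86 for Aff2. In wild-type hippocampus they were 1524 ± 137, 848 ± 63.6, 236 ± 13.3 and 130 ± 7.57 for the same genes in the same order. Neighbours in the order were separated in both hippocampal groups, but the distance between Aff4 and Aff3 was small in the knockout.

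In knockout cortex the levels per kb were 733 ± 25.3 for Aff4, 656 ± 17.2 for Aff3, 194 ± 7.74 for Aff1 and 67.1 ± 2.97 for Aff2. In wild-type cortex they were 928 ± 221, 615 ± 97.1, 145 ± 39.4 and 75.9 ± 35.5. The ranges of Aff4 and Aff3 in wild-type cortex overlapped across libraries, from 674 to 1062 for Aff4 and from 505 to 689 for Aff3. Within each of these libraries Aff4 was nevertheless the higher of the pair. In wild-type library 2 the levels per kb were 674 for Aff4, 505 for Aff3, 101 for Aff1 and 34.9 for Aff2, and it was the lowest of the 3 for each gene.

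Ratios within a library do not depend on its size factor and can be set side by side across the tissues. They do carry the trend of fold changes along exonic length, in which the members differ. In hippocampus the protein-coding median log2 fold change was -0.46 over 12 kb of exon (Aff4) and 0.04 at 4 to 8 kb (Aff3). Per 100 units of Aff3 (both per kb), Aff2 stood at 2.71 ± 0.27 in knockout hippocampus and at 15.4 ± 0.90 in wild-type hippocampus. In cortex the ratio was 10.2 ± 0.63 in knockout and 13.8, 6.91 and 15.0 in wild-type libraries 1, 2 and 3. The Aff4 level was 1.06 ± 0.0046 times that of Aff3 in knockout hippocampus and 1.80 ± 0.04 times in wild-type hippocampus. In cortex Aff4 was 1.12 ± 0.02 times Aff3 in knockout and 1.50 ± 0.15 times in wild type, with all 3 wild-type libraries (1.33 to 1.63) above all 3 knockout libraries (1.10 to 1.14). Wild-type library 2, at 1.33, lay between the highest knockout library (1.14) and the other wild-type libraries (1.52 and 1.63).

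The share of each gene in the family sum per kb showed the same pattern, and it carries the length trend too. In knockout hippocampus Aff4 held 46.6% ± 0.04 of the sum, Aff3 43.8% ± 0.19, Aff1 8.34% ± 0.15 and Aff2 1.19% ± 0.11. In wild-type hippocampus the shares were 55.6% ± 0.57, 31.0% ± 0.39, 8.64% ± 0.22 and 4.77% ± 0.25 in the same order. The sum itself was 1883 ± 31.1 per kb in knockout hippocampus and 2739 ± 218 in wild-type hippocampus. In cortex it was 1650 ± 46.9 in knockout and 1765 ± 390 in wild type, where library 2 had 1315 and libraries 1 and 3 had 2010 and 1969. The Aff1 share was 11.7% ± 0.20 in knockout cortex and 8.18% ± 0.55 in wild-type cortex, and the Aff4 share 44.4% ± 0.46 in knockout and 52.5% ± 1.36 in wild type. In wild-type library 2 alone these shares were 7.70% for Aff1 and 51.2% for Aff4, both on the wild-type side of all knockout libraries.

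**Figure D2:**
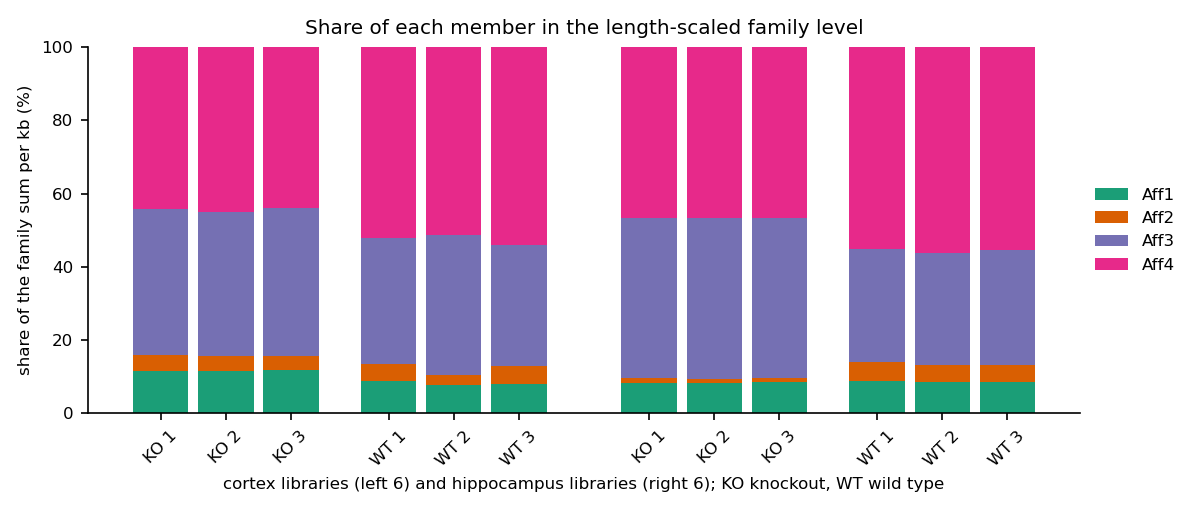
Share (%) of each member in the sum of the 4 levels per kb of exon, 1 bar per library, with knockout (KO) left of wild type (WT) in cortex (left) and hippocampus (right). Aff2 took 1.09% to 1.31% of the sum in knockout hippocampus and 4.54% to 5.04% in wild-type hippocampus, and Aff4 took a smaller share in all 6 knockout libraries than in the wild-type libraries of the same tissue. The trend of fold changes along exonic length was not removed from these shares.

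In hippocampus the log2 fold change of protein-coding genes varied with merged exonic length. Genes with over 12 kb of exon, where Aff4 belongs, had a median of -0.46 and 71.0% of 865 fell. Genes with 8 to 12 kb, where Aff1 belongs, had a median of -0.16 and 41.0% of 1843 fell. Genes with 4 to 8 kb, where Aff2 and Aff3 belong, had a median of 0.04 and 11.6% of 5938 fell. Aff4, at -0.79, and Aff1, at -0.59, lay below the lower quartiles of their length classes (-0.76 and -0.44). Aff3, at -0.04, lay between the quartiles of its class (-0.15 and 0.15), and Aff2, at -2.54, lay far below them. With the length trend removed Aff2 remained at -2.46 and Aff3 was at 0.0088. In cortex with all libraries the class medians were -0.05 over 12 kb, 0.06 at 8 to 12 kb and 0.06 at 4 to 8 kb, beside -0.31 for Aff4, 0.45 for Aff1, -0.04 for Aff2 and 0.11 for Aff3. Without wild-type library 2 they were -0.18 over 12 kb, -0.02 at 8 to 12 kb and 0.03 at 4 to 8 kb, beside -0.53 for Aff4, 0.21 for Aff1, -0.52 for Aff2 and -0.03 for Aff3.

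**Figure D3:**
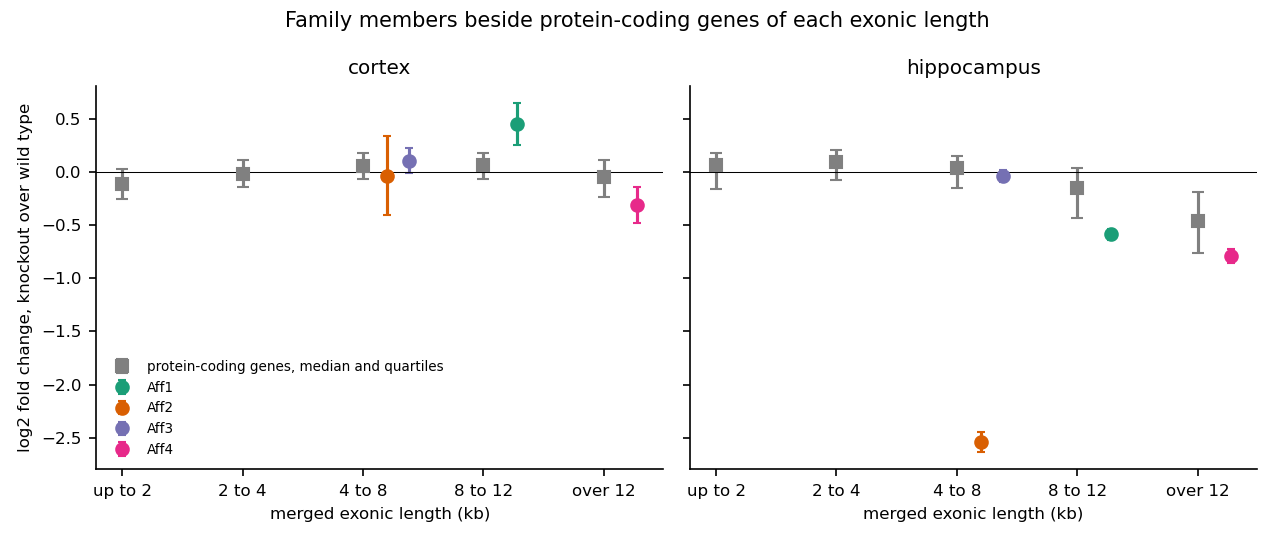
Log2 fold change, knockout over wild type (vertical axis), of the 4 members as coloured points with SE, beside the median and quartiles (grey squares and bars) of all tested protein-coding genes in classes of merged exonic length in kb (horizontal axis). In hippocampus the class medians ran from 0.10 at 2 to 4 kb to -0.46 over 12 kb, and Aff2 at -2.54 lay far below its class.

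In bulk tissue, fewer cells of a type and less RNA per cell cannot be told apart, and the levels of cell type markers stand here beside those of the members. Over all genes tested in hippocampus, 14.1% rose and 15.1% fell. Excitatory neuron markers (4 of 6 rose, 0 fell) summed to between 744347 and 788738 normalized counts in knockout hippocampus and to between 610298 and 721954 in wild-type hippocampus. Inhibitory neuron markers (4 of 6 rose, 0 fell) summed to between 53854 and 55714 in knockout and to between 39313 and 46749 in wild type. Both neuronal sums were higher in knockout hippocampus, where Aff1, Aff2 and Aff4 were lower, and a link between them was not tested. Microglia markers (6 of 6 rose) lay between 23139 and 23782 in knockout hippocampus and between 16140 and 19590 in wild-type hippocampus. Oligodendrocyte markers (4 of 6 rose) lay between 432041 and 501044 in knockout and between 397612 and 402594 in wild type, and astrocyte markers (3 rose and 1 fell of 6) between 288764 and 303883 in knockout and between 306740 and 372365 in wild type. Of the 8 striatal neuron markers 1 rose and 2 fell there, and their sums lay between 13707 and 14353 in knockout and between 16656 and 19926 in wild type.

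The vascular and choroid plexus lists varied widely between the wild-type hippocampus libraries. Endothelial markers summed to between 18927 and 19622 in knockout and to between 14700 and 30227 in wild type, with 0 of 6 called by limma or edgeR and 1 at an unadjusted p below 0.05. Choroid plexus markers summed to between 9117 and 18124 in knockout hippocampus and to 347481, 12454 and 180156 in wild-type libraries 1, 2 and 3, with 0 of 6 called by limma, 4 at an unadjusted p below 0.05 and 5 called by edgeR. Of all genes tested in hippocampus, 41.3% had an unadjusted p below 0.05 by limma, and edgeR called 6682 of 22337. Leaving out wild-type library 2, 4 of 6 endothelial and 6 of 6 choroid plexus markers fell (limma). In that fit the share of protein-coding genes that fell ran from 8.41% at 2 to 4 kb of exon to 72.7% over 12 kb. Wild-type library 2, whose choroid plexus sum lay within the knockout range, had the highest level of all 4 members. That is 1 library, and the part of choroid plexus in the member values was not tested.

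In cortex, striatal neuron markers (8 of 8 rose) summed to between 39092 and 62572 normalized counts in knockout and to between 17575 and 18301 in wild type. Choroid plexus markers (1 of 6 rose) lay between 2562 and 11312 in knockout cortex and between 1451 and 1744 in wild-type cortex. Excitatory neuron markers lay between 563312 and 571824 in knockout and between 503472 and 519944 in wild type, with 0 of 6 called by limma or edgeR and 3 at an unadjusted p below 0.05, and inhibitory neuron markers (2 of 6 rose) between 67034 and 67780 in knockout and between 56239 and 60423 in wild type. For glia and vessels, 1 of 6 microglia markers (16629 to 17114 in knockout, 14666 to 16437 in wild type) and 1 of 6 endothelial markers (16798 to 18019 in knockout, 13464 to 14368 in wild type) rose, and 1 of 6 astrocyte markers (250668 to 270192 in knockout, 236864 to 335692 in wild type) fell. The lowest wild-type astrocyte sum was that of library 2, against 335692 and 330941 in libraries 1 and 3. Oligodendrocyte markers lay between 374887 and 405983 in knockout and between 326328 and 335391 in wild type, with 0 of 6 called by limma or edgeR and 4 at an unadjusted p below 0.05. With wild-type library 2 left out, limma called 8 of 8 striatal markers, 2 choroid plexus, 3 excitatory, 5 inhibitory, 2 microglia, 3 endothelial and 6 oligodendrocyte markers as higher in knockout cortex, and 2 excitatory, 1 inhibitory, 1 endothelial and 2 astrocyte markers as lower. Of the 6 cortical markers 5 rose and 1 fell in that fit, and of the 8 hippocampal markers 1 rose and 3 fell. Among all 21927 genes of that fit, 2420 rose and 2273 fell. With all cortex libraries 1.28% of all genes rose, 0.661% fell and 18.4% had an unadjusted p below 0.05 (limma). In every one of these marker lists 0 genes were at 0 in any library. The part of these cell types in the values of the members was not tested.

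The rest of the elongation machinery was followed with 55 genes in 6 lists, all of which were tested. In hippocampus 8 of the 55 rose (14.5%) and 8 fell (14.5%), close to the 14.1% of all genes that rose and the 15.1% that fell, 29.2% in all (limma, Benjamini-Hochberg adjusted p below 0.05). At an unadjusted p below 0.05 (limma), 21 of the 55 were higher and 8 lower, where 21.1% of all genes were higher and 20.2% lower. The median log2 fold change of the 55 genes was 0.09, and that of all genes tested was 0.02. Of the 8 that fell, 7 were among the 11 listed genes with over 8 kb of exon.

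Of the 10 genes listed as super elongation complex partners and P-TEFb, the cyclin T genes fell. Ccnt2 averaged 5879 ± 204 normalized counts in knockout hippocampus and 8334 ± 42.0 in wild-type hippocampus, a log2 fold change of -0.50 ± 0.04 (limma adjusted p = 0.000126), and of -0.18 (adjusted p = 0.0104) with the length trend removed. Ccnt1 fell by 0.25 on the log2 scale (adjusted p = 0.00419), a call lost with the length trend removed (-0.08, adjusted p = 0.216). Ell2, an elongation factor, rose by 0.20 ± 0.06 (adjusted p = 0.0387), and its call was lost in 7 of 14 alternatives, with adjusted p of up to 0.124: without any 1 of the libraries except wild-type library 2, with no filter on low values and with no variance trend. With the length trend removed it was at 0.41 (adjusted p = 0.00145). Cdk9, the kinase itself, was not called (0.11 ± 0.04, adjusted p = 0.0505). Mllt1 and Mllt3, which encode the chromatin readers ENL and AF9, measured 0.10 ± 0.06 and -0.05 ± 0.06 and were not called either.

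Of the 6 regulators of P-TEFb, Hexim2, an inhibitor, rose, with 591 ± 12.2 normalized counts in knockout hippocampus and 444 ± 8.72 in wild-type hippocampus (log2 fold change 0.41 ± 0.07, limma adjusted p = 0.00341). Mepce (0.11 ± 0.04, adjusted p = 0.0791) and Rn7sk (-0.45 ± 0.20, adjusted p = 0.139), the capping enzyme and the RNA of the inhibitory particle, were not called, though Mepce was after quantile normalization (adjusted p = 0.039). Of the 4 genes of the DOT1L and MLL list, Kmt2a, the histone methyltransferase gene that fuses to AFF1 in human leukaemia, fell. It had 8809 ± 132 normalized counts in knockout hippocampus and 23373 ± 1605 in wild-type hippocampus (-1.41 ± 0.05, adjusted p = 1.62e-05), and was at -0.94 with the length trend removed. Dot1l, the methyltransferase of histone H3 bound by the same partners, fell by 0.53 on the log2 scale (adjusted p = 9.19e-05), while Mllt10 was not called (-0.04 ± 0.05, adjusted p = 0.587).

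Of the 3 genes of the little elongation complex, a relative that serves small nuclear RNA genes, Ice1 fell by 0.78 on the log2 scale (limma adjusted p = 2.53e-05; -0.50 with the length trend removed) and Ice2 by 0.52 (adjusted p = 0.00180), and Zc3h8 was not called (adjusted p = 0.544). Of 20 pausing and elongation factors 4 rose and 2 fell. At an unadjusted p below 0.05 (limma), 11 of them were higher and 2 lower, against 21.1% and 20.2% of all genes. Cdk12, a kinase of elongating polymerase, had 1731 ± 11.3 normalized counts in knockout hippocampus and 2722 ± 48.6 in wild-type hippocampus (-0.65 ± 0.04, adjusted p = 5.13e-05), and was at -0.35 with the length trend removed. Tcea1 rose by 0.26 ± 0.05 (adjusted p = 0.00593) and Rtf1, of the PAF1 complex, by 0.18 ± 0.04 (adjusted p = 0.00899). The other calls, named here to complete the count after their values were seen, were rises of Paf1 (0.19 ± 0.04) and Ssrp1 (0.18 ± 0.04) and a fall of Cdc73 (-0.31 ± 0.07), with adjusted p of 0.0100, 0.0194 and 0.0105.

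Of 12 RNA polymerase II subunit genes, Polr2b (0.23 ± 0.06, limma adjusted p = 0.0224) and Polr2e (0.14 ± 0.04, adjusted p = 0.0359) rose and 0 fell, with 5 subunit genes higher and 0 lower at an unadjusted p below 0.05, where 21.1% of all genes were higher and 20.2% lower. The Polr2b call was lost in 4 of 14 alternatives, namely without knockout library 2 or 3 or wild-type library 3 and with no variance trend, with adjusted p of up to 0.0921. The Polr2e call was lost in 10 of 14 alternatives, with adjusted p of up to 0.141: without each library except wild-type library 1, with no filter, with no variance trend, with the replicate block (adjusted p = 0.0509), by edgeR and with the length trend removed. Polr2g, with 0.16 ± 0.05, was not called (adjusted p = 0.0554), but was called in 5 of 14 alternatives, with adjusted p down to 0.0296 without wild-type library 2. Exons of Ell2, Ell3, Cdk9, Ccnt1, Mllt10, Kmt2a, Ice1, Supt5, Supt6, Ssrp1, Cdc73, Tcea1, Polr2b and Polr2h share bases with another annotated gene. The labels do not say whether reads were counted by strand, so the values of these genes are uncertain to that extent in both tissues.

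In cortex 0 of the 55 genes rose and 1 fell (1.82%) by limma and also by edgeR, with 4 higher and 5 lower at an unadjusted p below 0.05, where 10.03% of all genes were higher and 8.38% lower. Of all genes tested there, 1.28% rose and 0.661% fell, 1.94% in all. The gene that fell was Rn7sk, the RNA that holds P-TEFb inactive, with 56.5 ± 4.25 normalized counts in knockout cortex and 123 ± 21.1 in wild-type cortex (-1.09 ± 0.18, limma adjusted p = 0.0424). Its call was lost in 9 of 14 alternatives, with adjusted p of up to 0.200: without any 1 of the libraries except wild-type library 2, with no filter, after quantile normalization, with no variance trend and with the replicate block (adjusted p = 0.137). How fully these libraries captured Rn7sk, with 0.331 kb of exon and few counts, was not tested in either tissue. The median of the 55 genes was -0.03, and that of all genes tested was -0.01. Without wild-type library 2, 7 of the 55 rose and 6 fell, where 2420 and 2273 of 21927 genes rose and fell.

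Several genes that fell in hippocampus were not called in cortex with all libraries and passed the threshold without wild-type library 2. Kmt2a averaged 10303 ± 137 normalized counts in knockout cortex and 18003 ± 6505 in wild-type cortex (-0.73 ± 0.26, limma adjusted p = 0.212), and without wild-type library 2 it was at -1.08 (adjusted p = 7.38e-07). Ccnt2 (-0.22 ± 0.09, adjusted p = 0.268) and Ice2 (-0.43 ± 0.13, adjusted p = 0.163) were not called with all libraries and fell without that library, at -0.32 (adjusted p = 0.000308) and -0.54 (adjusted p = 0.00756). Ice1 (-0.14 ± 0.18, adjusted p = 0.708) likewise fell without it, at -0.38 (adjusted p = 7.97e-05). Without it, 51.2% of protein-coding genes over 12 kb (Kmt2a and Ccnt2), 21.6% at 8 to 12 kb (Ice1) and 8.67% at 4 to 8 kb (Ice2) fell. With all libraries and the length trend removed, Kmt2a, Ccnt2 and Ice2 also fell (limma adjusted p = 0.0434, 0.0345 and 0.0362), and Ice1 was not called (0.348). Dot1l measured 0.37 ± 0.21 (adjusted p = 0.386) with all libraries and 0.10 (adjusted p = 0.0395) without wild-type library 2, so it passed the threshold in cortex, as a rise, without that library.

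Ell2 (0.23 ± 0.07, limma adjusted p = 0.152), Supt6, a histone chaperone of elongation (0.24 ± 0.09, adjusted p = 0.234), and Polr2a, the largest polymerase subunit (0.28 ± 0.10, adjusted p = 0.215), were not called in cortex. Without wild-type library 2 these 3 rose, by 0.19, 0.14 and 0.16 on the log2 scale, with adjusted p of 0.0281, 0.0146 and 0.00849. Ell3 (-0.37 ± 0.17), Larp7 (-0.25 ± 0.15), Nelfe (-0.18 ± 0.07), Polr2h (-0.20 ± 0.11), Supt5 (0.11 ± 0.06), Polr2b (0.16 ± 0.07), Mllt6 (0.16 ± 0.14) and Zc3h8 (0.06 ± 0.13) were not called, with limma adjusted p between 0.248 and 0.842. These 8 were not called without wild-type library 2 either, and measured there -0.24 (Ell3), -0.06 (Larp7), -0.16 (Nelfe), -0.09 (Polr2h), 0.08 (Supt5), 0.10 (Polr2b), -0.01 (Mllt6) and 0.12 (Zc3h8).

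**Figure D4:**
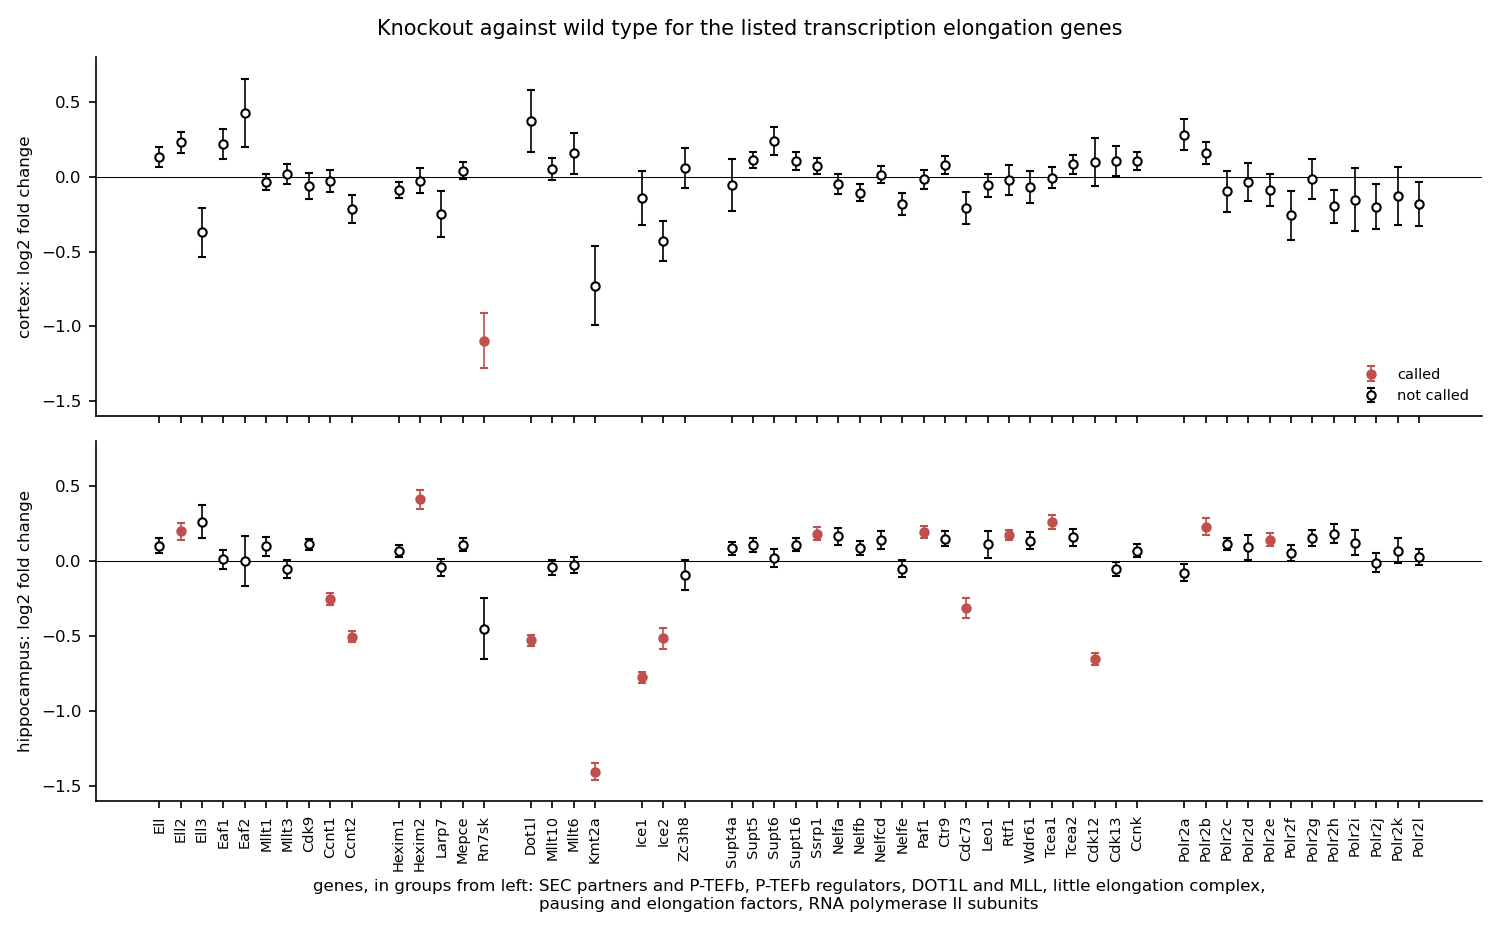
Log2 fold change ± SE, knockout over wild type (vertical axes), of 54 of the 55 elongation genes in cortex (top) and hippocampus (bottom), grouped by list along the horizontal axis, with filled red points for called genes and open points for the others. In hippocampus Kmt2a lay lowest at -1.41, followed by Ice1 at -0.78, and Hexim2 lay highest at 0.41.

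The members were related to each other and to other genes by Pearson's r over the 12 libraries, on log2 values centred within each tissue. These correlations share the knockout contrast and cortex wild-type library 2, carry no test and say nothing of shared function. Among the members, r was 0.93 between Aff2 and Aff4, 0.80 between Aff1 and Aff2, 0.75 between Aff1 and Aff3, 0.63 between Aff1 and Aff4, 0.42 between Aff3 and Aff4 and 0.40 between Aff2 and Aff3. Of 13575 protein-coding genes compared, the most like Aff2 were Cdk7, the kinase of the transcription factor TFIIH (r = 0.994), Zkscan16 (0.992) and Ddi2 (0.992). In hippocampus these measured -0.95, -1.96 and -0.65 on the log2 scale, all smaller in size than Aff2. The most like Aff4 were Ryr2, a calcium release channel (0.998), Usf3 (0.997) and Prrc2c (0.997), with 28.8, 13.1 and 16.1 kb of exon. Aff1 was most like Lrrc8b (0.987), Ttll7 (0.987) and Adcy9, an adenylyl cyclase (0.986), each of which was also higher in knockout cortex (0.39, 0.32 and 0.53) and lower in knockout hippocampus (-0.40, -0.48 and -0.74). Aff3 was most like Dclk2 (0.982), Cacna1h, a calcium channel subunit (0.980), and Nlgn1, a synaptic adhesion protein gene (0.974).

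**Figure D5:**
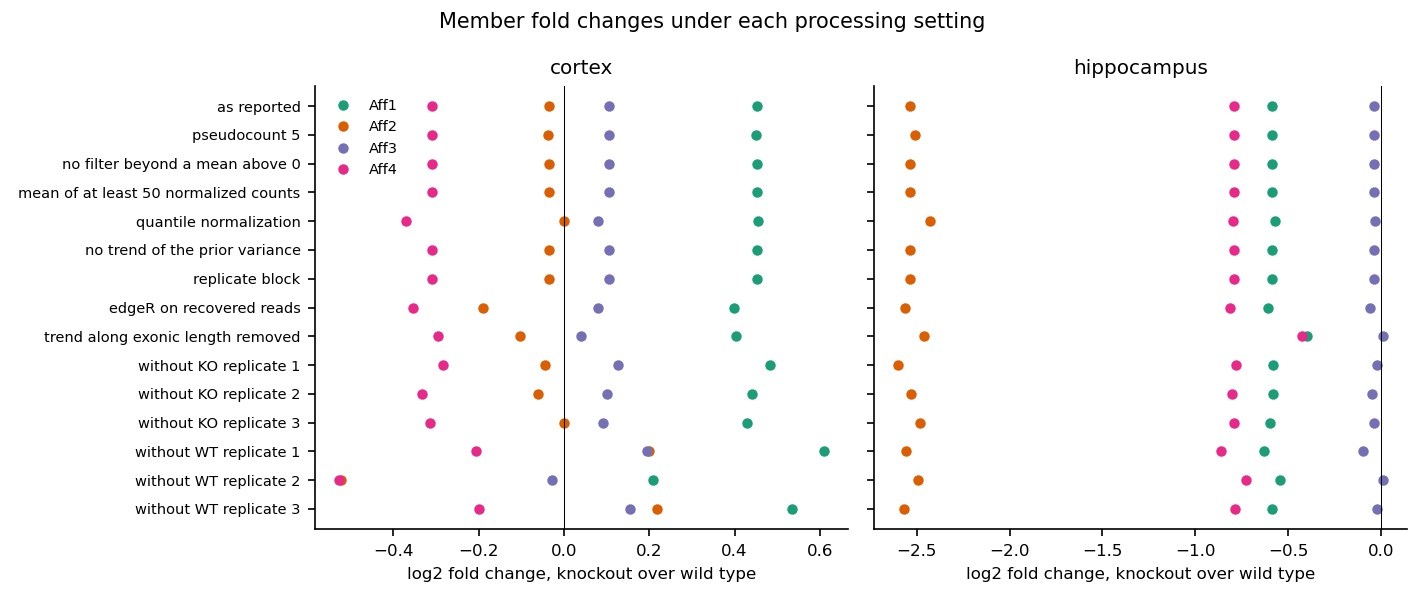
Log2 fold change, knockout over wild type (horizontal axes), of the 4 members under each processing setting (rows). In hippocampus Aff2 ranged from -2.60 to -2.43 over the alternatives, while in cortex the wild-type library left out moved Aff2 between -0.52 and 0.22.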

How the data were processed

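RNA was extracted with Trizol, per the labels. A table of 55487 gene rows for each tissue was used. Its deposited values are a signal, gene counts scaled per library by the authors. Per the submitters' processing notes, the tools were STAR, HTSeq and DESeq2 and the build GRCm38; their versions and the strand setting are not stated. In each library 100% of values were whole multiples (within 0.001) of a step between 0.902 and 1.07, taken as 1 read; for cortex wild-type libraries 1 and 2 the step lies too near 1 to check, so their totals are estimates. Columns of other samples numbered 0. The tables were scaled separately, so tests were made within a tissue.

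Of the rows, 55227 matched GENCODE M21 (GRCm38), which gave symbols, coordinates and merged exonic lengths. Knockout and wild type were compared per tissue with limma 3.58.1 in R 4.3.3 (prior variance following expression) on log2 values with a pseudocount of 1. Genes needed a mean normalized count of 10 or more over the 6 libraries. The p-values were adjusted by Benjamini-Hochberg over all genes tested, with a threshold of 0.05. The pseudocount makes fold changes of low genes too small. Counting errors cover counting only. "Rose" and "fell" mean called genes. The count test edgeR 4.0.16 on recovered reads called 446 genes in cortex and 6682 in hippocampus, against 426 and 6513 by limma. The members and gene lists were chosen with earlier results of these data known. Named elongation genes are up to 3 per list and tissue with the smallest p, and for each member the 3 named protein-coding genes of mean at least 50 in both tissues with the highest correlation. The text marks other genes as chosen after their values were seen, apart from Cdk9, Mllt1 and Mllt3, named as partners in the complex. For 1 gene of the lists, the values are not reported here, though the counts include it. Promoter windows come from RefSeq tables (GRCm38.p6), in which all 4 members matched. Alternatives were another pseudocount, other filters, quantile normalization, no variance trend, a replicate block, edgeR, removal of the length trend (lowess, span 0.3) and leaving out each library. Before use, the models were tested on simulated data.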

Additional observations from a re-analysis of the deposited data

Results flagged for a closer look

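Aff1 and Dot1l were flagged because all knockout libraries lay above all wild-type libraries in cortex and below all of them in hippocampus. Only the members and the named elongation genes were searched, and Aff1 was listed with its values known. Of all genes tested, 16.0% lay above in cortex and 21.5% below in hippocampus, and the share doing both was not counted. For Aff1 the log2 fold change in hippocampus minus that in cortex was -1.04, from -0.59 and 0.45. For Dot1l it was -0.90, from -0.53 and 0.37. The difference between the tissues was not tested. Without cortex wild-type library 2 the cortex values were 0.21 and 0.10, of the same sign.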

How the results depend on the processing

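The 4 member values in hippocampus kept their sign under all 14 alternatives except Aff3, which ranged from -0.10 to 0.0088. Aff1 and Aff4 were at -0.40 and -0.43 with the length trend removed, and Aff2 at -2.43 after quantile normalization. In cortex, leaving out 1 library moved Aff1 between 0.21 and 0.61, Aff2 between -0.52 and 0.22, Aff3 between -0.03 and 0.20 and Aff4 between -0.53 and -0.20. Genes called in cortex (426) numbered 233 with no filter, 86 with no variance trend, 45 with the replicate block, 1283 with the length trend removed and 15 to 4693 when 1 library was left out: 63, 47 and 15 without knockout library 1, 2 and 3, and 112, 4693 and 66 without wild-type library 1, 2 and 3; the listed elongation genes called there (1) numbered 0 with no filter, after quantile normalization, with no variance trend and with the replicate block, 4 with the length trend removed, and 0 to 13 with 1 library left out. In hippocampus, genes called (6513) numbered 3656 to 7833 and listed elongation genes called (16) numbered 11 to 22 with 1 library left out. The lowest gene counts were 4069 without knockout library 2 and 3656 without wild-type library 3, and after quantile normalization 26 elongation genes were called. Rises were 48.2% of hippocampal calls, 60.7% after quantile normalization (where the median over all genes was 0.09, against 0.02) and 37.4% with no variance trend. Of genes not called, Mllt6 in cortex changed sign without wild-type library 2 (range -0.011 to 0.24 with 1 library left out), Zc3h8 in cortex did so without knockout library 1 or 3 (-0.0053 to 0.18), and Zc3h8 in hippocampus did so after quantile normalization (0.032). Correlations of same-numbered knockout and wild-type libraries lay between -0.06 and 0.09, and not every library correlated best with its own number. With 3 libraries per group, these values cannot settle whether the numbers pair the libraries. With the replicate block 16 elongation genes were called in hippocampus, 15 of them among the original 16. The cause of these shifts was not tested. Depth limited Aff2 in knockout hippocampus most, at 155 reads in the lowest library.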

Other observations

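Several gene models lie inside the members' loci. Gm8172, a processed pseudogene on the opposite strand that shares no exon bases with Aff2, measured 600, 576 and 586 normalized counts in knockout hippocampus and 539, 539 and 517 in wild-type hippocampus. These values were higher in all 3 knockout libraries, while Aff2 itself was lower in all 3. In knockout cortex Gm8172 measured 433, 410 and 444, against 417, 553 and 444 in wild-type cortex, with wild-type library 2 the highest where Aff2 was lowest. Gm14705, the model that shares exon bases with Aff2, was at no more than 2.97 in any library. Gm16150, an antisense model that shares no exon bases with Aff3, measured 30.3, 25.3 and 29.0 in knockout hippocampus and 64.1, 15.0 and 40.2 in wild-type hippocampus, so the groups overlapped, as they did for Aff3.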
